A study of Mus musculus with 20 samples.

Results

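Hspa5, the chaperone BiP of the endoplasmic reticulum, was examined with 9 further genes of protein folding, quality control and stress signalling in that compartment: P4hb, Edem1, Pdia3, Pdia4, Pdia6, Calr, Canx, Hsp90b1 and Xbp1. These 10 genes were taken by their symbol in the platform annotation, which gave 11 of the 17280 probes and 10 of the 13406 genes with a symbol. Every gene had 1 probe except Canx, which had 2. The set was chosen by its log2 ratios over the 11 time points, which were already known, so the courses and means of its genes are given as descriptions. Where a fit across all genes called some of them, the calls are counted beside the share of all genes called, and nothing is read from them.

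The cells were Hepa1-6, an established mouse hepatoma line that keeps some features of hepatocytes, grown to confluence in DMEM with glucose. Experimental flasks were switched between 0 and 4 mM glutamine at medium changes at the start and after 24, 48 and 72 h of a 96 h experiment. Control flasks had their medium changed at the same times and were kept at 4 mM glutamine. Each array carried Cy5-labelled RNA of flasks with varied glutamine and Cy3-labelled RNA of flasks with constant glutamine, and 20 arrays covered 11 numbered time points, 2 arrays for 9 of them and 1 array for numbers 5 and 11.

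Neither the hour nor the glutamine level of a numbered time point is in the labels, so none is assigned here. They do not say whether the second array of a time point, titled with an r, came from another flask, so the spread between arrays may be technical. A positive log2 ratio likely means more transcript in flasks with varied glutamine, because the labels list that RNA first. One array of time point 4 is labelled as having glutamine-free cells in its control channel, and it was kept with the rest. The base of the logarithm is an assumption. All values are relative to the median spot of the array, and a ratio gives no level that could be compared between genes. Dyes were never swapped, so that dye bias of a probe and a lasting difference between flasks cannot be told apart. In RNA of whole flasks, a smaller share of cells with a transcript and less transcript per cell cannot be told apart either.

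Proteins that enter the secretory pathway are folded in the endoplasmic reticulum by chaperones such as Hspa5 and Hsp90b1, by the lectins Calr and Canx that hold glycoproteins, and by protein disulfide isomerases such as P4hb, Pdia3, Pdia4 and Pdia6. When unfolded proteins accumulate, the unfolded protein response raises transcripts of many of these genes through Atf6, through the spliced form of Xbp1 and through Atf4, and Hspa5 is the usual marker of it. Hepatocytes, which secrete most plasma proteins, carry a large load of such folding, and glutamine feeds the hexosamines used for N-glycans.

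The DNA element best known for this response is the ER stress response element, CCAAT followed by 9 bases of any kind and CCACG, which is bound by NF-Y at one end and by ATF6 or XBP1 at the other. It was looked for on both strands of RefSeq promoter windows of build GRCm38.p6, each reaching from 250 bases before to 50 bases after the start of the gene, and all 10 genes had a window. The upstream part of the Hspa5 window, chr2:34771840-34772089 on the plus strand, is shown because the results turn on this gene. Capitals mark the element and a TGACGTG, the core of another element bound by XBP1 and ATF6.
Hspa5 upstream: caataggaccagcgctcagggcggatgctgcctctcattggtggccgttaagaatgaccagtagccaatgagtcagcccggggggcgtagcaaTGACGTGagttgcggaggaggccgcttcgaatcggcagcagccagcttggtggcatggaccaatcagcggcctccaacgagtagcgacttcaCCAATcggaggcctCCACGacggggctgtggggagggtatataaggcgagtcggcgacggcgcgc

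The ER stress response element was found in 5 of the 10 windows, those of Hspa5, Pdia6, Calr, Canx and Hsp90b1, and Hsp90b1 held it at 2 places. Among all 32851 promoter windows of the table, 39 held it (0.119%). The sites are shown so that the genes can be set beside their courses, each with 12 bases on either side and with capitals on CCAAT and CCACG. They lay at chr2:34772025-34772043 (Hspa5, plus strand), chr12:17266491-17266509 (Pdia6, plus), chr8:84847075-84847093 (Calr, plus), chr11:50325800-50325818 (Canx, minus), chr10:86705638-86705656 (Hsp90b1, minus) and chr10:86705533-86705551 (Hsp90b1, plus). The Calr site and the second Hsp90b1 site are on the strand opposite to the gene.
Hspa5: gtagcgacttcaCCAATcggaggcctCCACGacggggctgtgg
Pdia6: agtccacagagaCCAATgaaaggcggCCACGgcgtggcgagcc
Calr: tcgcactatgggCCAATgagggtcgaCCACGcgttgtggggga
Canx: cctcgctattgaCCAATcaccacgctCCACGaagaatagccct
Hsp90b1, first: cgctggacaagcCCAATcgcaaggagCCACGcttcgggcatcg
Hsp90b1, second: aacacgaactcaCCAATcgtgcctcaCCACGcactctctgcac

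TGACGTG was found in the Hspa5 window alone among the 10 genes, and in 661 of the 32851 windows (2.01%). A shorter form known as ERSE-II, ATTGG with 1 free base and CCACG, was in none of the 10 and in 12 of all windows (0.0365%). The windows of P4hb, Edem1, Pdia3, Pdia4 and Xbp1 held none of these strings, which says only that the letters are not in the 300 bases searched. A match of letters is no evidence of binding in these cells.

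How far the genes could be measured differed widely. An array gave a value for 24.7% to 47.9% of its probes, and how spots came to be blank is unknown here. The second arrays of time points 6 and 10 were not used for the values below: across probes they correlated with their partner at 0.0539 and -0.0168, whereas partners at the 7 remaining pairs reached 0.518 to 0.691. The lowest correlation between any 2 arrays was -0.0667. The median gene with a symbol had a value on 3 of the remaining 18 arrays, 4338 genes (32.4%) had none and 3572 (26.6%) had one on 14 or more. Of 12 hepatocyte markers with a probe, 9 gave a value on some of these arrays. So did 6 of 7 fibroblast or stellate cell markers, 2 of 4 endothelial cell markers and none of 4 macrophage markers. No cell type is read from these counts.

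On the 18 arrays Pdia6 had a value on 18, P4hb on 17, Hspa5 on 16, Canx on 15, and Edem1 and Hsp90b1 on 12 each. Calr had a value on 5 arrays and Xbp1 on 2. Pdia3, the isomerase that works with Calr and Canx, gave none. Pdia4, another isomerase, had a single value of -0.06, on the second array of time point 6, which was not used. Of the 10 genes 8 could therefore be described and 6 followed over 9 or more time points. A blank spot does not show that a transcript was missing, since the reason for blanks is not known.

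The Hspa5 probe lies at a place that matters for the arrays of time points 5 and 6. On these 2 arrays (the first array for number 6), spots that open each run of 20 probe numbers were raised. Their median was 2.72 in time point 5 and 1.28 in time point 6, and -0.10 to 0.08 over the 17 arrays of all remaining time points. The raise reached beyond the first place, with medians of 1.24 and 0.33 at the second place, 0.46 and 0.13 at the third and 0.14 and 0.00 at the fourth. Hspa5 and Calr have their spot at the first place, Hsp90b1 at the third and no other gene of the set with a value on the used arrays within the first 4.

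**Figure D1:**
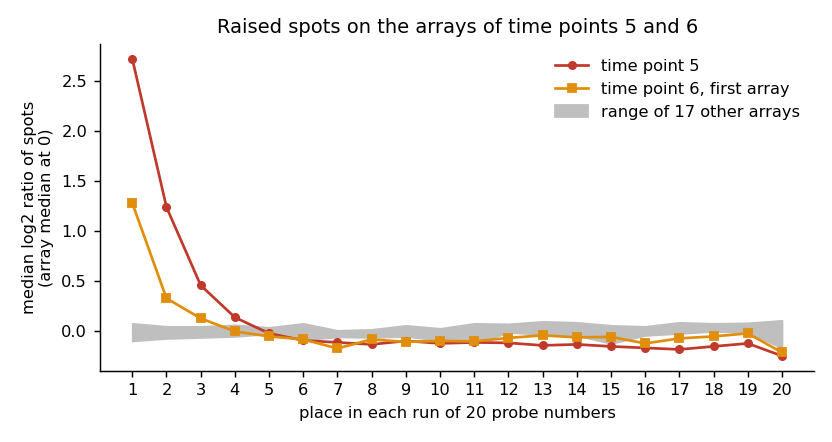
Median log2 ratio of the spots at each of the 20 places in a run of probe numbers (x axis), relative to the array median (y axis), for time point 5, the first array of time point 6 and, as a grey band, the range of the 17 arrays of the remaining time points. Time point 5 starts at 2.72 and time point 6 starts at 1.28, and at the fifth place they lie at -0.02 and -0.05, with lower values at most later places.

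Hspa5 read 1.44 in time point 5 and 0.56 in time point 6. Lower values stood on 17.1% of the 601 first-place spots of time point 5 and on 22.0% of the 477 of time point 6, so Hspa5 lay below the middle of its raised neighbours on both arrays. These 2 values enter below only where all 20 arrays, or 20 arrays without the second of time point 6, are named. No other statement on Hspa5 covers time points 5 and 6.

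Hspa5 was among the most positive values of the array at several time points and among the most negative at 2 others. It read 0.49 and -0.10 on the 2 arrays of time point 1, 0.64 and 0.64 in time point 2, 0.96 and 0.48 in time point 3, and 0.85 and 1.11 in time point 4. It read -0.66 and -0.97 in time point 7, -0.48 and 1.00 in time point 8, 1.26 and 0.73 in time point 9, 1.09 on the array used of time point 10 and -1.35 on the single array of time point 11. Both arrays were thus positive at time points 2, 3, 4 and 9, both were negative at time point 7, and the arrays of time points 1 and 8 fell on either side of 0. In terms of rank within the array, 96.5% to 99.96% of spots lay lower at time points 2, 3, 4, 9 and 10, and 0.104% at time point 11. At time point 7 the share was 8.53% and 2.82%.

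**Figure D2:**
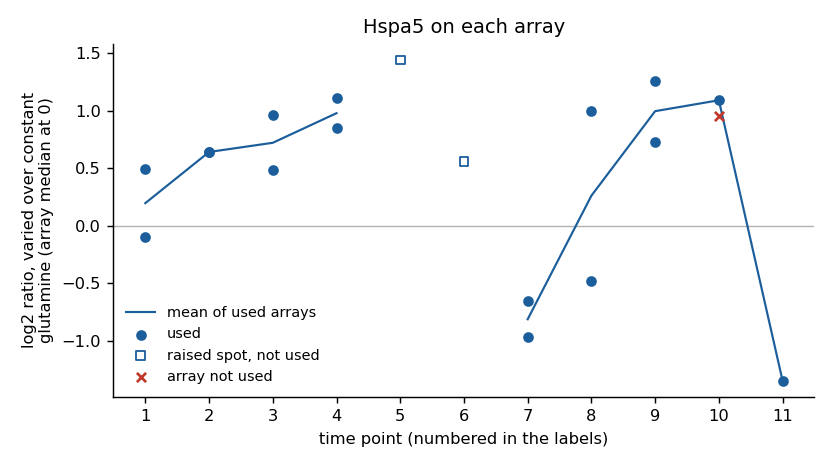
Log2 ratio of Hspa5, varied over constant glutamine, on each array (y axis, array median at 0) by time point (x axis); filled points are arrays used, open squares the raised spots of time points 5 and 6, the cross the second array of time point 10, and the line joins means. Time points 2 to 4, 9 and 10 lie above 0, time points 7 and 11 below, and the arrays of time point 8 are 1.48 apart.

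The second array of time point 10, not used, read 0.95 for Hspa5, against 1.09 on the first. Its deposited value there was 1, which 310 spots of that array shared. On that array 88.7% of spots lay lower, against 99.7% on the first, so the closeness of the 2 readings says little. Over 9 time points the mean of Hspa5 was 0.30 ± 0.85 (SD, n = 9), with 7 time-point means above 0 and 2 below. Its SD over time points ranked 4 of 3269 genes with values at the same 9 time points. The spread was therefore wide and the mean says little of any single time point.

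Between the 2 arrays of a time point, Hspa5 had an SD of 0.48 over 7 pairs and of 0.29 over the 6 pairs without time point 8. The largest difference between partners was 1.48 at time point 8 and 0.59 elsewhere. Ordered by their means, the time points ran 10 (1.09), 9 (1.00), 4 (0.98), 3 (0.72), 2 (0.64), 8 (0.26), 1 (0.20), 7 (-0.81) and 11 (-1.35). Of the 8 gaps between neighbours in that order, only the 1.01 between time points 1 and 7 was larger than its standard error of 0.48. Neighbours among time points 10, 9, 4, 3 and 2 lay at most 0.26 apart, and time points 7 and 11 lay 0.54 apart with a standard error of 0.59. The largest gap thus lay between time points 7 and 11 and the rest. These standard errors use the SD of 0.48, which includes time point 8. With 0.29 they would be smaller. The gaps of 0.38 between time points 2 and 8 and of 0.54 between time points 7 and 11 would then exceed their own. Small steps between neighbours can add up, so this order does not place time points 1 and 8 with the high ones or apart from them.

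For the probes numbered next to Hspa5, the median of the 10 probe numbers on either side, of which 5 to 11 gave a value, was -0.17 to 0.23 on the arrays of time points 2 to 4, 9 and 10, and -0.31 to -0.07 on those of time points 7 and 11. A median of several probes ranges less than a single spot, and where these probes lie on the array is not known here. Probes at the same place in the other blocks of 540 probe numbers are described with Il1r1 below.

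P4hb, a protein disulfide isomerase that is also the beta subunit of prolyl 4-hydroxylase, was negative at all 11 time points. Its values were -0.57 and -0.76 in time point 1, -0.21 and -0.22 in time point 2, -0.49 and -0.03 in time point 3 and -0.52 and -0.95 in time point 4. They were -0.05 in time point 5, -0.77 in time point 6, -0.95 in time point 7, -0.29 and -0.18 in time point 8, -0.58 and -0.56 in time point 9, -1.29 in time point 10 and -0.87 in time point 11. All 17 used arrays lay below 0, and time points 10, 7 and 11 were lowest. The unused second arrays of time points 6 and 10 read 0.07 and 0.37, on the other side of 0 from their partners. The mean was -0.60 ± 0.38 (SD, n = 11), with an SD of 0.19 between partners over 6 pairs. At time point 10 P4hb and Hspa5 stood at opposite ends, -1.29 against 1.09 on the same array, and at time points 7 and 11 both were low.

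Edem1, which marks misfolded glycoproteins for removal from the endoplasmic reticulum, was below 0 at 8 of its 10 time points. It read 0.01 in time point 1, -0.38 in time point 2, -0.08 and -0.64 in time point 3, -0.51 in time point 4, 0.06 in time point 5 and -0.33 in time point 6. It read -0.62 in time point 8, -0.72 and -0.59 in time point 9, -0.41 in time point 10 and -0.01 in time point 11. Edem1 was therefore lowest at time points 8 and 9, where the mean of Hspa5 was positive, and near 0 at time point 11, where Hspa5 was lowest. Its mean was -0.32 ± 0.26 (SD, n = 10).

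Hsp90b1, the chaperone GRP94 of the endoplasmic reticulum, read -0.13 and -0.17 in time point 1, -0.46 and -0.28 in time point 2, 0.25 in time point 3 and -0.38 and -0.47 in time point 4. It read 0.07 in time point 5, -0.35 in time point 6, -0.16 in time point 9, -0.90 in time point 10 and -0.35 in time point 11, with no value at time points 7 and 8. It lay below 0 at 7 of 9 time points, with a mean of -0.26 ± 0.33 (SD, n = 9), and its lowest value fell at time point 10, where Hspa5 was highest. Partner arrays of Hsp90b1 differed by at most 0.18 over 3 pairs.

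Pdia6, an isomerase that binds Hspa5, stayed near the array median. Its time-point means ran between -0.36 (time point 5) and 0.24 (time point 6), with a mean of -0.10 ± 0.18 (SD, n = 11), and its partner arrays had an SD of 0.23. Canx, the membrane-bound lectin chaperone, ran between -0.33 (time point 5) and 0.41 (time point 9), with a mean of 0.06 ± 0.25 (SD, n = 10) and an SD of 0.23 between partners. For both genes the SD over time-point means was close to that between arrays of 1 time point. Many of these means average 2 arrays and so vary less than single arrays, which makes the 2 SDs not directly comparable. One of the 2 Canx probes gave a single value, -0.14 in time point 3, and the other gave all the rest.

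Calr, the soluble lectin chaperone and calcium store protein, had values at 4 time points: -0.34 in time point 1, -0.41 and -0.28 in time point 7, 0.01 in time point 10 and -0.28 in time point 11. Its mean was -0.24 ± 0.17 (SD, n = 4), and its raised spot of 0.48 at time point 5 was not used. Xbp1, whose messenger RNA is spliced by Ern1 to give an active transcription factor, read -0.25 at time point 1 and -1.15 at time point 5. These 2 arrays do not allow a course, and a ratio of the whole transcript says nothing of splicing.

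**Figure D3:**
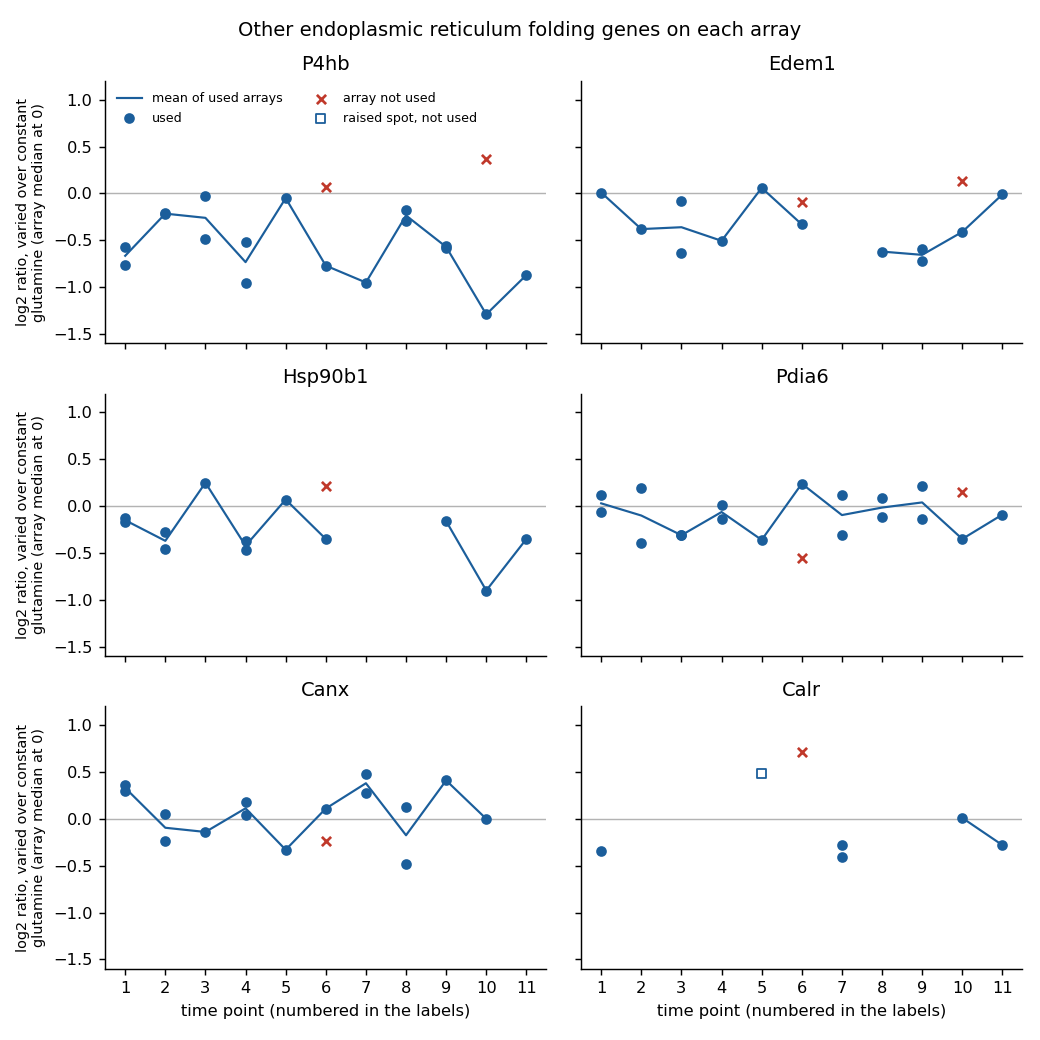
Log2 ratio, varied over constant glutamine (y axis, array median at 0), by time point (x axis) for the 6 other genes with values at 4 or more time points; filled points are arrays used, crosses the unused second arrays of time points 6 and 10, the open square the raised Calr spot, and lines join means of neighbouring time points. P4hb lies below 0 throughout, while Pdia6 and Canx stay between -0.36 and 0.41 in their means.

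In the mean over time points, limma at an adjusted p under 0.05 called 12.8% of 4398 genes lower and 20.1% higher (32.9% in either direction). Unnamed probes count as genes in this share and in those below. Of the 6 genes of the set with enough values, 3 were called lower (P4hb, Edem1 and Hsp90b1) and 0 higher, while Hspa5, Pdia6 and Canx were not called. At an unadjusted p under 0.05 in the same fit the count was also 3 of the 6, beside 1891 of all 4398 genes. The median of the 6 means was -0.18, against 0.02 over all genes tested. Nothing is read from these counts, because the courses chose the set. The call of Hsp90b1 was lost in 8 of the 11 fits that left out a time point, and on all 20 arrays, where 9.05% of genes were called lower and 13.6% higher. Without centring, the median of all genes lay 0.26 higher and that of the 6 genes was 0.06. Of the 6 genes 3 were then called higher (Hspa5, Canx and Pdia6) and 1 lower (P4hb). Over all 4398 genes, 2946 were then called higher and 69 lower. The sign of the mean changed for Pdia6 alone (-0.10 to 0.16), whereas Edem1 (-0.07) and Hsp90b1 (-0.04) stayed negative and lost their calls. Whether a gene of the 6 was called thus depended on the centring, except for P4hb.

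For differences among time points, limma's F test at an adjusted p under 0.05 called 31.2% of 4023 genes, and 2 of the 4 genes of the set that had a value on 14 or more arrays: Hspa5 and P4hb, but not Pdia6 and Canx. Canx was called when only its best covered probe was used and in 4 of the 14 fits that left out an array. With the first 4 places left out at time points 5 and 6 the share of all genes was 25.7%, and without both time points it was 19%, with Hspa5 and P4hb called in each. With all 20 arrays the share was 7.0%, and of the 4 genes only Hspa5 was called. Nothing is read from these counts either.

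Of the other genes of the set with 6 or more shared time points, 1 had a weakly positive correlation with the course of Hspa5 and 4 had a negative one. Pearson's correlation with Hspa5 over time-point means was 0.195 for P4hb (n = 9 time points), -0.104 for Hsp90b1 (n = 7), -0.215 for Pdia6 (n = 9), -0.331 for Canx (n = 8) and -0.681 for Edem1 (n = 8). Spearman's rho was 0.0167 for P4hb, -0.429 for Hsp90b1, -0.167 for Pdia6, 0 for Canx and -0.619 for Edem1. Among all genes with values at the same time points, 60.4% had a lower correlation with Hspa5 than P4hb, 32.1% than Hsp90b1, 22.4% than Pdia6, 27.0% than Canx and 1.97% than Edem1. The points share arrays and reference RNA, so these values describe the courses and carry no p. The median over 3268 genes with all 9 time points was 0.0868, and 5% lay above 0.658. None of the 5 genes reached that, though Canx, Edem1 and Hsp90b1 had fewer than 9 shared time points. The promoter windows of Pdia6, Canx and Hsp90b1 share the stress element with that of Hspa5, and those of P4hb and Edem1 do not. The part of the element in these courses was not tested.

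These correlations rest on few points and moved with single time points. Leaving out a time point in turn gave 0.0397 to 0.603 for P4hb, -0.791 to -0.462 for Edem1, -0.384 to 0.0221 for Pdia6, -0.604 to 0.135 for Canx and -0.462 to 0.228 for Hsp90b1. On all 20 arrays with every spot, that of P4hb was 0.686 and that of Edem1 -0.240. Under these settings the correlation of P4hb stayed positive and that of Edem1 negative, while those of Pdia6, Canx and Hsp90b1 crossed 0 when some time point was left out.

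**Figure D4:**
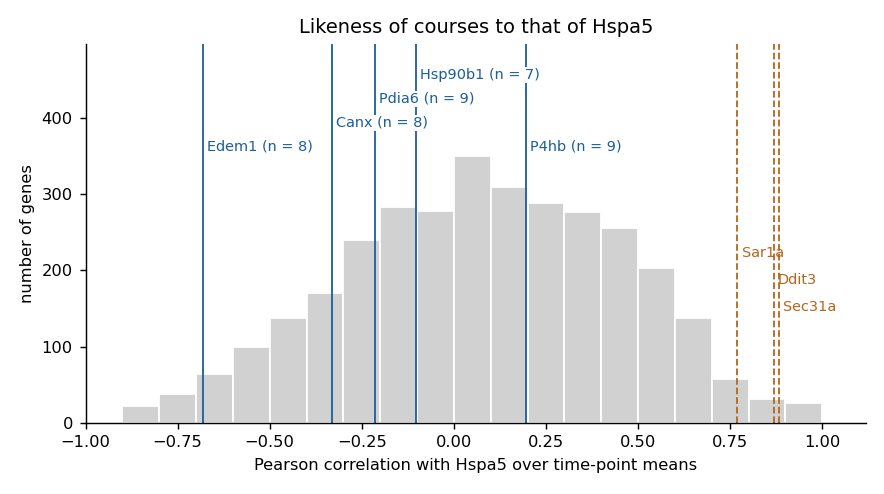
Histogram of Pearson's correlation with Hspa5 over time-point means (x axis) for 3268 genes with values at all 9 time points (y axis, number of genes). Solid lines mark the 5 genes of the set, from -0.681 for Edem1 to 0.195 for P4hb with n the shared time points, and dashed lines mark Sar1a (0.769), Ddit3 (0.868) and Sec31a (0.882).

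The gene whose course was most like that of Hspa5 was Il1r1, the signalling receptor of interleukin-1, with a correlation of 0.978 over 9 time points and 0.964 over 16 arrays. Il1r1 followed Hspa5 even where partner arrays disagreed, with -0.68 and 0.88 at time point 8, and its means ran between -1.53 (time point 11) and 1.06 (time point 10). Its probe has the same place within its block of 540 probe numbers as that of Hspa5, 2 blocks further on. Of the 32 probes at this place, 9 others had values on 10 or more of the 16 arrays, and their correlation with Hspa5 over arrays ran from -0.786 to 0.613. The part of the shared place in the likeness of Hspa5 and Il1r1 was not tested beyond these values.

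The next genes were the unnamed probe 15073 (0.971), Kdm8, a protein of the JmjC family (0.970), Psmd1, a subunit of the proteasome cap (0.960), and Cdipt, the phosphatidylinositol synthase of the endoplasmic reticulum (0.955). On all 20 arrays with every spot, Il1r1 was at 0.918, but this value includes the first-place spots of both genes on the raised arrays, where Il1r1 read 2.50 and 0.16 in time points 5 and 6. In the same setting probe 15073 was at 0.667, Kdm8 at 0.413, Psmd1 at 0.31 and Cdipt at 0.276, so the likeness of the last 3 was far smaller there. The most opposite courses were those of Tmem176a, a membrane protein (-0.947), 4930518C04Rik (-0.897) and Mif, a secreted cytokine (-0.882), which on all 20 arrays had -0.857, -0.927 and 0.283.

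**Figure D5:**
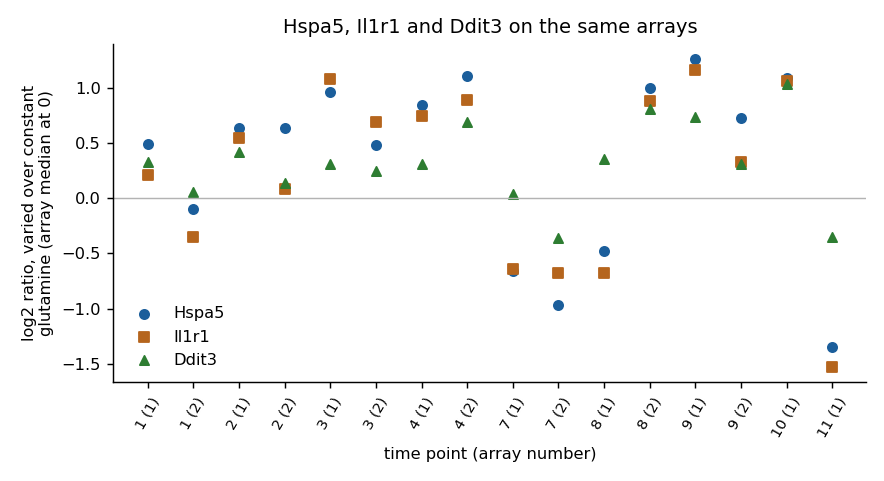
Log2 ratio of Hspa5, Il1r1 and Ddit3, varied over constant glutamine (y axis, array median at 0), on the 16 used arrays outside time points 5 and 6 (x axis, time point with the array number in brackets). Both Hspa5 and Il1r1 are on opposite sides of 0 on the 2 arrays of time point 8, and all 3 genes are below 0 at time point 11.

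Around Hspa5, lists of other endoplasmic reticulum genes were counted in the same fits, in which 20.1% of all genes were called higher and 12.8% lower for the mean and 31.2% among time points. Higher and lower refer here to the mean ratio against 0 and not to a change over time. Among 19 sensors and factors of the unfolded protein response with a probe, 5 were tested for the mean. Ern2 (0.55 ± 0.57, SD, n = 11) and Ddit3 (0.31 ± 0.37, SD, n = 11) were called higher and none lower. Ern2 is an epithelial relative of the stress sensor Ern1, and its highest value, 2.16, fell at time point 5. Ddit3 encodes CHOP, a transcription factor of prolonged stress, and its spot lies at the third of the raised places, with 0.32 in time point 5 and 0.15 in time point 6. In the F test among time points 3 of 5 were called: Ern2, Ddit3 and Ppp1r15b, a phosphatase subunit that reverses the block on translation.

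Ddit3 was the stress factor whose course came closest to that of Hspa5, with a correlation of 0.868 over 9 time points, 0.835 over 16 arrays and 0.822 over the 11 time points of all 20 arrays. It read 1.04 in time point 10, 0.36 and 0.81 in time point 8, 0.04 and -0.36 in time point 7 and -0.35 in time point 11. Its lowest time points were thus those where Hspa5 was lowest. Atf4, upstream of Ddit3, had a probe but gave no value on these 16 arrays.

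Of 40 list genes with values at all 9 time points, 3 had a correlation with Hspa5 above 0.658 (7.50%, against 5% of all genes): Ddit3, Sec31a (0.882) and Sar1a (0.769). Sec31a and Sar1a, coat and GTPase of the vesicles that leave the endoplasmic reticulum, were picked out after their values were seen. On all 20 arrays they had 0.456 and 0.591. The median correlation of the 40 genes was 0.0944, near the 0.0868 of all genes.

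Of 34 other chaperones and folding enzymes of the endoplasmic reticulum with a probe, 8 were tested for the mean. Of these Clgn, a chaperone related to Canx (0.26 ± 0.18, SD, n = 11), and Sil1, the nucleotide exchange factor of Hspa5 (0.19), were called higher. Dnajc10, a co-chaperone of Hspa5 (-0.22), was called lower. The median of the 8 was 0.03. In the F test among time points limma called 0 of 7, and 2 had an unadjusted p under 0.05, as had 1713 of all 4023 genes.

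In degradation from the endoplasmic reticulum, 1 of 8 tested genes was called higher, the ubiquitin-conjugating enzyme Ube2j2 (0.13), and none lower. Among time points 1 of 7 was called, the ubiquitin ligase Rnf5, which was lowest (-0.91) at time point 6. In the translocon and signal peptide list, 3 of 12 were called higher: the signal peptidase Sec11a (0.34), Srp19 of the signal recognition particle (0.25) and Tram2 (0.23). Tram1, which helps chains through the translocon, was called lower (-0.22). Among time points 2 of 9 were called, the channel subunit Sec61b and its partner Sec63, which recruits Hspa5.

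In N-glycosylation 3 of 8 tested genes were called higher, the dolichol-phosphate mannose synthase subunits Dpm1 (0.23) and Dpm3 (0.18) and the oligosaccharyltransferase subunit Rpn2 (0.20). The oxidoreductase subunit Tusc3 was called lower (-0.19). The catalytic subunit Stt3a, whose spot lies at the second place of 20, was the 1 of 6 called among time points and reached 2.29 at time point 5, where such spots had a median of 1.24. In transport between endoplasmic reticulum and Golgi, 2 of 16 were called higher, the coatomer subunit Copb2 (0.46) and the KDEL receptor Kdelr1 (0.22). The cargo lectin Lman2 (-0.30) and Kdelr2 (-0.23) were the 2 called lower. KDEL receptors return escaped chaperones such as Hspa5, and these 2 lay on opposite sides of the median. Among time points 4 of 14 were called, Sec31a, Sar1a, Lman1 and Copb2. Lman1 was lowest (-1.08) and Copb2 highest (1.03) at time point 5, and Sec31a was lowest (-0.76) at time point 6. Both extremes of Sar1a fell elsewhere, at time points 10 and 11. Fits of the list genes without time points 5 and 6 are not given here. In the calcium list the binding protein Sdf4 was called lower (-0.22), 1 of 4, and Rcn2 was the 1 of 3 called among time points.

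Medians of these lists lay between -0.05 and 0.15, against 0.02 for all genes and -0.18 for the 6 genes of the set. Hepatocyte markers were called in both directions, with Apoc3 (0.25) higher and Alb (-0.60) and Fgb (-0.28) lower among 6 tested. Of 4 fibroblast or stellate cell genes tested, 1 was called higher (Col1a2, 0.20) and 1 lower (Pdgfrb, -0.30). The 1 endothelial gene tested, Kdr, was called higher (0.21). The part of any change in cell state or cell makeup in the courses of Hspa5 and P4hb was not tested.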

How the data were processed

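The deposited table holds 1 column for each of 20 spotted 2-colour arrays, taken as log2 ratios of Cy5 over Cy3. Per the labels, Cy5 marked the experimental and Cy3 the control RNA. Spot filter, background correction, normalization and log base are not given in the sources used here. Deposited medians of the arrays lay between 0.05 and 0.435, so each array was centred on its median. Probes were named from the platform annotation (14718 with 1 symbol, 1 with several, 2562 with none; 14445 matched a RefSeq gene table and 0 symbols changed), and probes of 1 symbol were averaged. Probes without a single symbol were kept as rows of their own and count as genes in the fits and rankings. Values came from 18 arrays, without the second arrays of time points 6 and 10 and on time points 5 and 6 without the spot that opens each run of 20 probe numbers.

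R 4.3.3 with limma 3.58.1 tested the mean of time-point means against 0 (genes at 9 or more time points) and, by an F test, differences among time points (genes on 14 or more arrays, spread from 7 time points with 2 arrays), with Benjamini-Hochberg adjustment over all genes at 0.05. Both tests were tested on simulated data. Neighbouring time points may not be independent, and the number of arrays limits the precision. Likeness to Hspa5 was Pearson's correlation of time-point means, with at least 6 shared time points for a gene of the set and 9 for ranking all genes.

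The members, the lists and the tests were chosen with earlier results of these data known. The genes named are all 10 members, the 5 most and 3 least like Hspa5, and in each list up to 4 genes called for the mean, otherwise the 2 with the largest mean; genes called among time points, Atf4, Sec31a and Sar1a were named after their values were seen. Alternatives changed the arrays, raised spots, centring, spread, probe choice, value minimum, replicate block, left-out arrays or time points, and the correlation.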

Additional observations from a re-analysis of the deposited data

How the results depend on the processing

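Without centring, 3015 genes were called for the mean (2946 higher, 69 lower; 97.7% higher, against 61.1% with centring), and the median of the 6 members' means was 0.062. With all 20 arrays and every spot, the F test among time points called 262 genes and 1 member; with 20 arrays without the second of time point 6, an alternative chosen after seeing the data, it called 314 genes and 1 member. With the spread of arrays made equal it called 831 genes, without time points 5 and 6 (also chosen after seeing the data) 818, and with genes on all 18 arrays 676 genes and 0 members, since Hspa5 and P4hb lack values on some arrays. With genes at all 11 time points, 1 member was called for the mean, as fewer members were tested. Leaving out a time point in turn gave 1189 to 1641 genes and 2 to 3 members for the mean, a median of member means of -0.20 to -0.13 and a median likeness of -0.384 to 0.0221, against -0.215 with all. Leaving out an array in turn gave 1040 to 1443 genes and 2 to 3 members among time points.

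With the arrays titled r as a replicate block, 1145 genes and 2 members were called among time points, against 1254 and 2. Between time points, 21 correlations of the second minus the first array ran from -0.432 to 0.332 (median -0.0523), and 6 were above 0.1. These values do not decide whether arrays of the same number belong together.

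Of single genes, P4hb lost its F call on all 20 arrays and on 20 arrays without the second of time point 6, Edem1 its call for the mean without centring, and Hsp90b1 its call in 5 settings and in 8 of the 11 fits that left out a time point. Hspa5 was called for the mean without centring (0.59) and without time point 11 (0.51), and Canx (0.33) and Pdia6 (0.16) for the mean without centring, where 3 members were called higher and 1 lower. Of all 4398 genes tested, 2946 were called higher and 69 lower without centring. Canx gained the F call with its best covered probe and in 4 of the 14 fits that left out an array. The cause of these changes was not tested. The main limits are blank spots, which leave Calr, Xbp1, Pdia3 and Pdia4 without a course, single arrays at time points 5, 6, 10 and 11, and the lack of swapped dyes.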
